A study of Rattus norvegicus with 8 samples.

Results

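Collagens are the structural proteins of the extracellular matrix, and their genes are read here in the hypothalamus of lactating Wistar rats. The members are the 37 genes whose name on the array is Col, a number, the letter a and a second number. They are measured by 54 of the 30367 probes that are not controls, and the array design holds 26269 gene names in all. The members were chosen by name and not by a measured value, though with earlier results of these data known. Hypothalamic RNA was taken on postpartum day 7 from 4 control dams and 4 dams exposed to TCDD, a dioxin that binds the aryl hydrocarbon receptor. The series asks how dioxin acts on hypothalamic mRNAs of rat mothers. The dose, route and time of exposure, the age of the dams and what the controls received could not be taken from the labels. Each sample was hybridised to its own Agilent Whole Rat Genome array in 1 colour, with no pooling of dams named.

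A collagen is built from chains that hold stretches of repeating triplets, each beginning with glycine, which lets the chains wind into a triple helix. Fibrillar types such as I and III form the fibres of connective tissue. Type IV forms the sheet of basement membranes around vessels, and other types coat fibrils, form beaded filaments or span the plasma membrane. In the brain the neural tissue itself is poor in fibrillar collagen, which lies mainly in the meninges and around larger vessels and is made there by fibroblasts. Basement membrane collagen is found along the whole vascular tree.

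Levels are given as log2 of the scanner's processed signal minus the array's 75th percentile, so that 0 is the 75th percentile of the array's spots and a step of 1 is a doubling. They compare arrays for a probe and not a probe with another probe. A difference is TCDD minus control on this log2 scale, and the spread of a gene is its pooled SD, the SD between arrays of the same group in the limma fit. The 75th percentile of the signal ranged from 756 to 1077 over the 8 arrays, between 69.3% and 73.7% of spots were well above background, and the arrays correlated with each other at 0.986 to 0.991 across probes. All control arrays lie on slide 1 with scan 1 and all TCDD arrays on slide 2 with scan 2, so slide, scan and exposure cannot be told apart. Replicate number equals position on the slide, and the arrays in position 1 had the lowest 75th percentiles, at 756 in control replicate 1 and 806 in TCDD replicate 1. Of 12 hypothalamus markers, 11 entered the test, among them Oxt, Avp and Pmch, and Otp was not well above background on any array. The summed signal of the hypothalamus markers ranged from 216 to 328 in control and from 190.2 to 270.5 in TCDD arrays, in units of the 75th percentile.

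The triplet repeat can be read in the letters of a pair of array probes, with the longest run of glycine codons (GG and any base) that recur every 9 bases in capitals:
Col4a1 probe: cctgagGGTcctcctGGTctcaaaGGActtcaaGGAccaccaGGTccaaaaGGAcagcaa
Col14a1 probe: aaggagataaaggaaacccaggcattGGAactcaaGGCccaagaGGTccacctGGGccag
The longest run in the Col4a1 probe, at chr16:83146135-83146194 (+) of rn4, is 6 such codons, and in the Col14a1 probe, at chr7:92028347-92028406 (+), it is 4. Before its capitals the Col14a1 probe also holds gga, gga and ggc in steps of 9 bases, in lower case. They do not continue in that step into the capitals. A run of at least 4 occurred in 0.184% of all 30367 probes. Both helix probes were dim. The Col4a1 one was well above background on 1 of 8 arrays, control replicate 1, and the Col14a1 one on 0 of 8, whereas the other probe of each gene was well above it on 8 of 8. The values of these genes below come from those other probes.

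Col4a1 and Col4a2 encode the major pair of basement membrane chains and start back to back, reading away from each other. The bases between their starts are shown because both genes share them, at chr16:84885521-84885596 of GRCr8 (RefSeq), written on the strand of Col4a1:
Col4a1 and Col4a2 shared start region: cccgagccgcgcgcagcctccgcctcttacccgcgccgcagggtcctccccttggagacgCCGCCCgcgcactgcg
The letters before the annotated start of Col1a2 are shown as those of the collagen with the largest difference between the groups, at chr4:33518307-33518556 (+) of GRCr8 (RefSeq):
Col1a2 upstream region: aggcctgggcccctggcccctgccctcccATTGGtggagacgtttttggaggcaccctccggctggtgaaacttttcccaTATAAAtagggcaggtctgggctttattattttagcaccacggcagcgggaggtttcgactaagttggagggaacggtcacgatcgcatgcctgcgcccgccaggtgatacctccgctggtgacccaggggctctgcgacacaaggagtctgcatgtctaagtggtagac
Capitals mark matches, on either strand, to the CAAT box motif CCAAT, the GC box motif GGGCGG and the TATA box motif TATAAA, none of which overlap here. The 76 bases shared by Col4a1 and Col4a2 are 78.9% G or C and hold 1 GC box match, which 18.1% of all 33469 RefSeq start windows hold in their last 76 bases before the start. The Col1a2 region of 250 bases holds 1 CAAT box and 1 TATA box match, which 34.0% and 12.9% of all windows hold in the same length. Of the 30 collagen genes with a window of 250 bases, 8 hold the CAAT box motif, 18 the GC box motif and 4 the TATA box motif. Over all windows of that length the shares are 34.0%, 30.5% and 12.9%. A match is a description of letters and not of a bound factor. Starts are those annotated in RefSeq, and whether transcription begins there was not tested, so a region may hold transcribed bases.

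Of the 37 collagen genes, 26 were tested, which required a probe well above background throughout a group of 4 arrays, and 25 of these were above it on all 8 arrays. The exception was Col5a1, a regulator of fibril diameter, which was not well above background on TCDD replicate 1. The 11 genes not tested included 9 with no array well above background, namely Col4a3, Col4a4, Col6a3, Col6a6, Col8a2, Col10a1, Col13a1, Col17a1 and Col24a1. Col4a3 and Col4a4 are chains of the specialised basement membranes of kidney and lung, and Col10a1 is the collagen of growth cartilage. Col20a1 was above background on 3 control arrays and 1 TCDD array. Col7a1, the anchoring fibril collagen of skin, was above it on control replicate 1 and TCDD replicate 2 alone, at -4.20 and -6.06.

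No collagen gene differed between TCDD and control dams past the adjusted threshold. With limma, 0 of 26 passed an adjusted p of 0.05 (Benjamini-Hochberg over all 16574 genes), and their adjusted p ranged from 0.399 to 0.999. Over all genes 4 passed, or 0.0241%. At an unadjusted limma p under 0.05, 1 collagen was lower in TCDD (Col4a2) and 1 was higher (Col19a1), against 2.82% and 7.95% of all genes. In 0 of 26 did the 4 TCDD arrays lie all below or all above the 4 control arrays, which was the case for 1.72% and 5.33% of all genes. The mean was lower in TCDD for 21 collagens and higher for 5, where 48.5% of all genes had a lower mean. The median difference of the 26 was -0.15, against 0.0042 for all genes, and it was -0.0014 without TCDD replicate 1, the array on which most collagens were lowest.

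**Figure D1:**
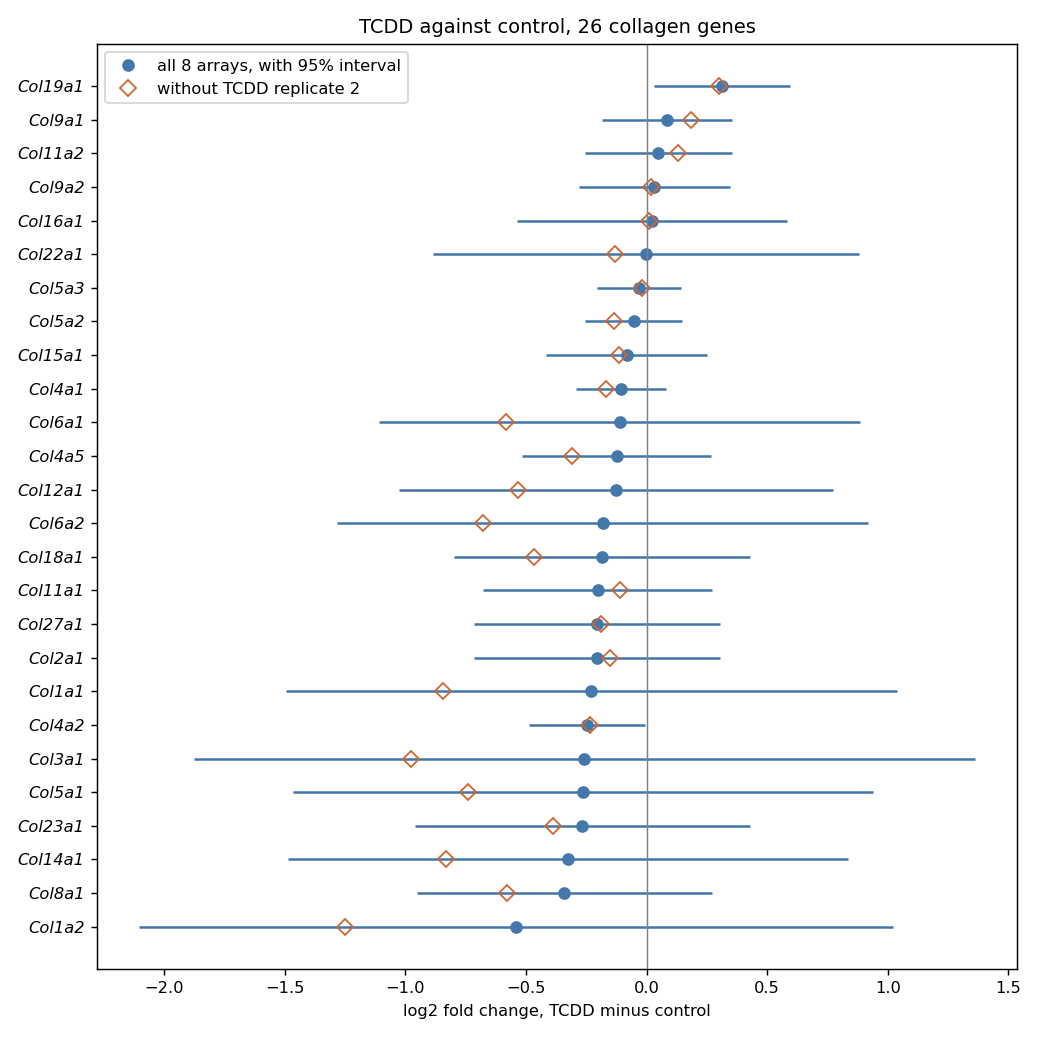
Difference between TCDD and control (log2, limma) for the 26 tested collagen genes: filled circles with bars are the value over all 8 arrays with its 95% interval, and open diamonds are the value without TCDD replicate 2. The intervals of Col19a1 and Col4a2 alone leave out 0, and the diamonds of Col1a2, Col3a1, Col1a1 and Col14a1 lie farther below 0 than their circles.

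Collagen levels varied strongly between arrays of the same group. Each sample had its own array and slide position, so variation between dams, arrays and positions cannot be told apart. The median pooled SD of the 26 collagens was 0.379, against 0.121 for all genes, and 24 of the 26 lay above that median. The genes compared were not matched to the collagens in signal level. Of the 26, 16 lay above the 90th percentile of all genes (0.317). The 3 widest were Col3a1 with 1.17, Col1a2 with 1.12 and Col1a1 with 0.911, each above the 99th percentile of 0.866. Next came Col5a1, Col14a1, Col6a2, Col6a1 and Col12a1, with 0.645 to 0.865. At the other end were Col5a3 with 0.107, Col4a1 with 0.118, Col5a2 with 0.130 and Col4a2 with 0.159.

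**Figure D2:**
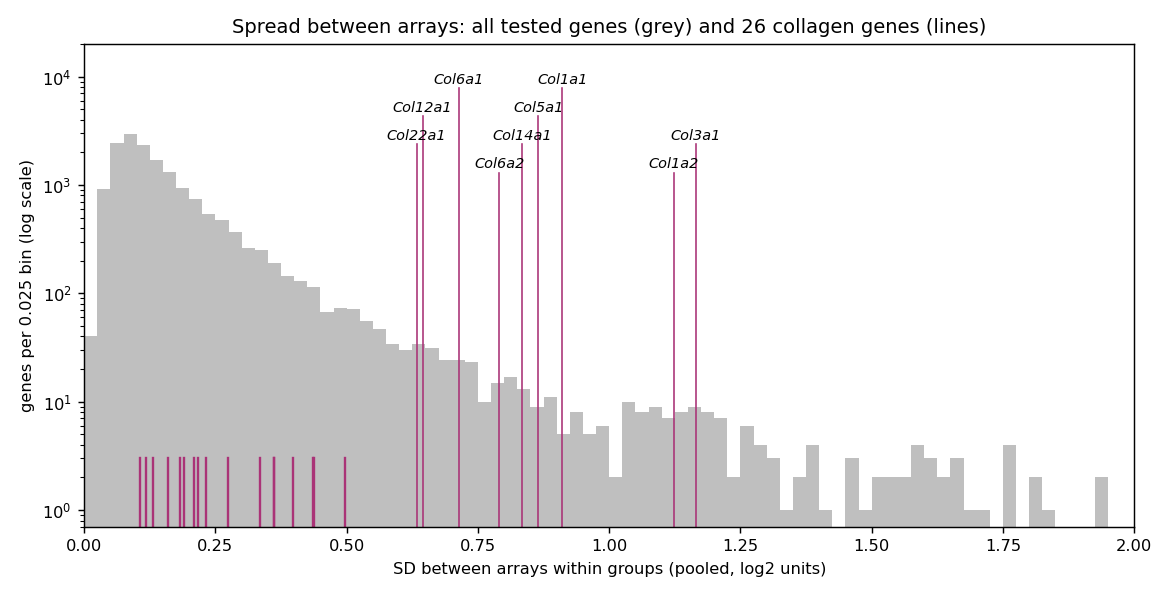
Pooled SD between arrays of the same group (x axis, log2 units) for all 16574 tested genes (grey bars, number of genes per bin on a log scale) and for the 26 collagens (lines, whose height has no meaning, with the widest 9 named). Genes beyond 2 log2 units are not drawn. The fibrillar chains Col3a1, Col1a2 and Col1a1 lie at 1.17, 1.12 and 0.911, far to the right of the median gene at 0.121.

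The fibrillar collagens were measured with 10 of 11 members, of which 9 had a lower mean in TCDD and 1 a higher one, with none at an unadjusted p under 0.05. Type I collagen is a trimer of the chains of Col1a1 and Col1a2 and is the main collagen of connective tissue. For Col1a2 (probe at chr4:29428206-29428265, + strand, rn4) the levels were -0.20, 1.20, 1.13 and 1.32 in control replicates 1 to 4 and -0.52, 2.45, -0.24 and -0.39 in TCDD replicates 1 to 4. TCDD replicate 2 was the highest of all arrays, control replicates 2 to 4 followed close together, and the other TCDD arrays lay with control replicate 1 at the bottom, so the groups overlapped. The group means were 0.86 ± 0.71 in control and 0.32 ± 1.42 in TCDD (SD, n = 4 each). The difference of -0.54 (95% interval -2.10 to 1.02, limma adjusted p = 0.851) was the largest of the 26 collagens in size and smaller than the spread between arrays.

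Col1a1 (chr10:83639260-83639319, +) stood at -2.62, -1.73, -2.01 and -2.15 in the controls and at -3.04, -0.51, -2.91 and -2.97 in the TCDD arrays. Again TCDD replicate 2 was far above every other array, and the other TCDD arrays lay below all controls. The difference was -0.23 with an SE of 0.55 (limma adjusted p = 0.934). A second probe of Col1a1, at chr10:83637956-83638015, gave -2.87, -2.24, -2.20 and -2.08 in controls and -2.95, -1.17, -2.53 and -2.76 in TCDD, with a difference of -0.01 (SE 0.38). Both probes had TCDD replicate 2 highest and TCDD replicate 1 lowest.

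Col3a1 encodes type III collagen, which forms fine fibrils beside type I in vessel walls and soft tissue. Its levels (chr9:44317465-44317524, +) were -3.70, -2.16, -2.05 and -2.10 in control and -3.65, -0.61, -3.44 and -3.34 in TCDD arrays. As for Col1a2, TCDD replicate 2 was highest and control replicates 2 to 4 came next, and here control replicate 1 was the lowest array. TCDD replicate 2 lay 2.87 above the mean of the other TCDD arrays, a 7.30-fold gap. The difference between groups was -0.26 (SE 0.71, limma adjusted p = 0.945).

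Col2a1, Col11a1, Col11a2 and Col27a1 encode fibrillar collagens of cartilage, and Col11a1 and Col11a2 encode chains of the same type XI trimer. Col2a1 (chr7:136679416-136679475, -) stood at -3.04, -2.92, -2.63 and -2.21 in control and -3.33, -3.07, -2.64 and -2.58 in TCDD, and differed by -0.21 (SE 0.22). Col11a1 (chr2:210190187-210190246, +) stood at -3.78, -3.63, -3.62 and -3.69 in control and -4.37, -4.16, -3.65 and -3.34 in TCDD, and differed by -0.20 (SE 0.21). Col27a1 (chr5:80316275-80316334, +) stood at -4.59, -4.48, -4.17 and -4.03 in control and -5.12, -4.57, -4.27 and -4.12 in TCDD, and differed by -0.20 (SE 0.22). For Col2a1, Col11a1 and Col27a1, TCDD replicate 1 was the lowest array and TCDD replicate 2 was not high, their limma adjusted p lay between 0.806 and 0.820, and the groups overlapped. Col11a2 differed by 0.05 (SE 0.13, limma adjusted p = 0.945), and its lowest array was control replicate 2. Of the markers of cartilage and bone, 2 of the 9 on the array entered the test (Hapln1 and Comp), and Dmp1 and Matn1 had no array well above background.

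The other fibrillar members were Col5a1, Col5a2 and Col5a3. Col5a1 and Col5a2 encode chains of the same type V trimer, which sits inside type I fibrils. Col5a1 had its highest level, -3.69, on TCDD replicate 2 and its lowest, -6.05, on TCDD replicate 1. Col5a2 also had its highest level on TCDD replicate 2, but it ran only from -1.70 to -1.28.

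**Figure D3:**
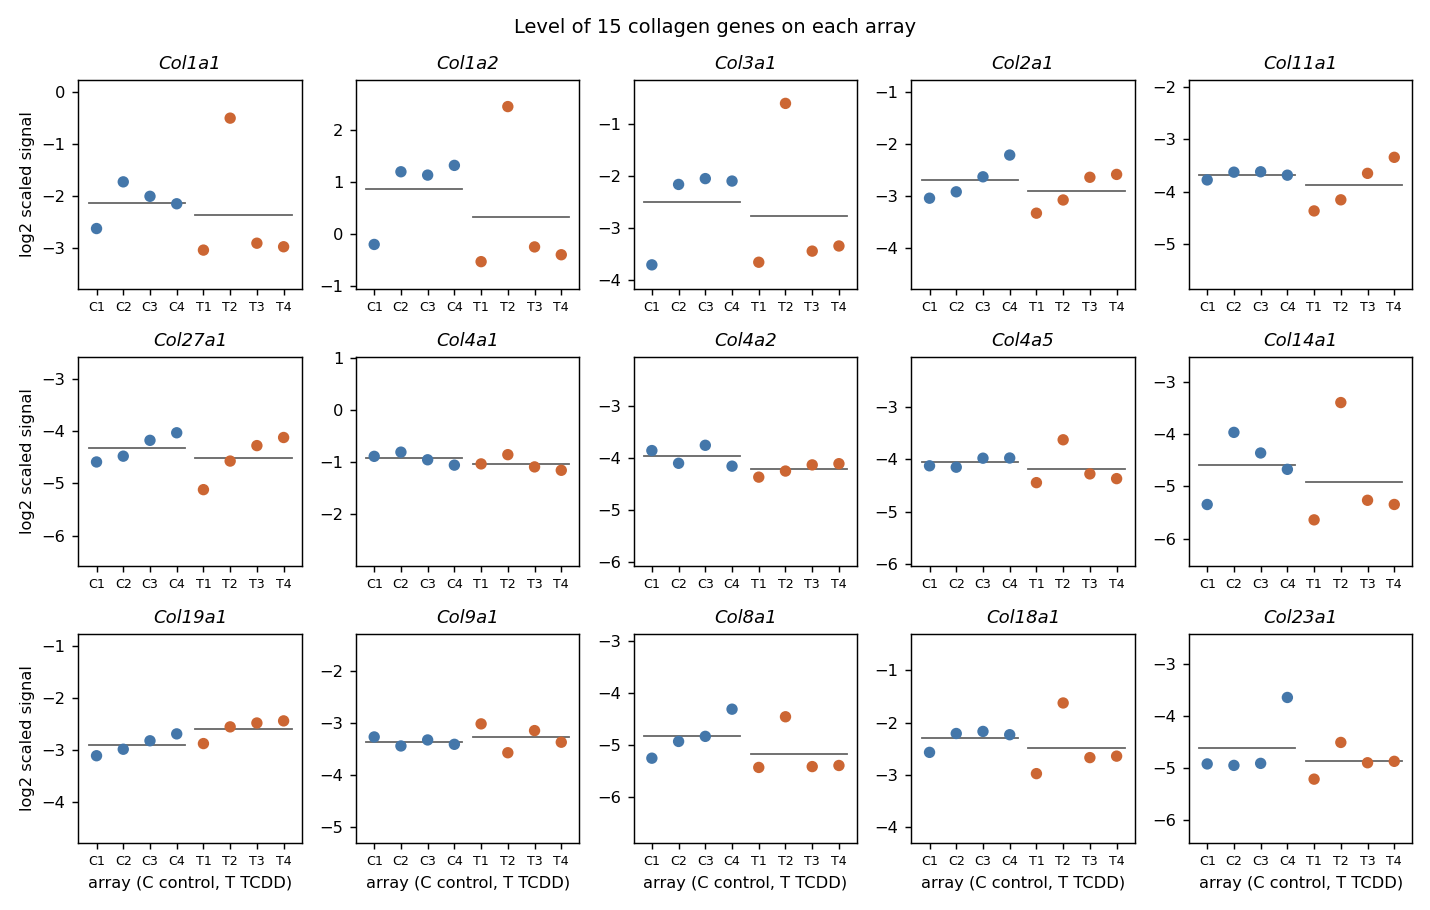
Level of 15 collagen genes (log2 scaled signal, y axis spanning 4 units in every panel) on each array, with controls in blue (C1 to C4), TCDD arrays in orange (T1 to T4) and grey lines for the group means. For Col1a1, Col1a2 and Col3a1, TCDD replicate 2 stands at -0.51, 2.45 and -0.61, above every other array, while the points of Col4a1 and Col4a2 stay close together.

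The basement membrane collagens had 3 of 5 members in the test, all with a lower mean in TCDD, and 1 of them, Col4a2, at an unadjusted p under 0.05. Col4a2 (chr16:82900301-82900360, - strand) stood at -3.86, -4.11, -3.76 and -4.16 in control and at -4.37, -4.26, -4.14 and -4.11 in TCDD arrays. Control replicates 1 and 3 were high, control replicate 2 lay just above the highest TCDD array, and control replicate 4 lay among the TCDD arrays. The means were -3.97 ± 0.19 and -4.22 ± 0.12 (SD, n = 4 each), a difference of -0.25 (95% interval -0.49 to -0.01, limma unadjusted p = 0.0452, adjusted p = 0.448). The unadjusted limma p was 0.0517 to 0.118 without control replicate 1 or 3 or TCDD replicate 1, 2 or 3, and 0.0189 to 0.0438 without any of the other arrays.

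Col4a1, whose product is wound with that of Col4a2 into the same trimer, stood (chr16:83157776-83157835, +) at -0.89, -0.81, -0.95 and -1.06 in control and at -1.03, -0.86, -1.09 and -1.15 in TCDD arrays. The 8 arrays spanned 0.35 and the groups overlapped. The difference was -0.11 (95% interval -0.29 to 0.08, limma adjusted p = 0.725). Neither gene of this pair, which share the start region printed above, was highest on TCDD replicate 2.

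Col4a5, a chain of a further type IV network, did follow that array. It stood (chrX:36919794-36919853, -) at -4.12, -4.15, -3.98 and -3.97 in control and at -4.45, -3.62, -4.28 and -4.37 in TCDD. The other TCDD arrays lay below all controls and TCDD replicate 2 above them. The difference was -0.12 (SE 0.17) over all arrays and -0.31 (SE 0.07, limma unadjusted p = 0.00353, adjusted p = 0.229) without TCDD replicate 2. Leaving out the highest array of this gene lowers its TCDD mean by construction.

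The FACIT collagens, which attach to fibrils and have an interrupted triple helix, had 7 of 8 members in the test, with 3 lower and 4 higher means in TCDD. Col19a1, known from neurons and muscle, was the 1 collagen with a higher mean at an unadjusted p under 0.05. Its levels (chr9:23003634-23003693, -) were -3.11, -2.98, -2.82 and -2.69 in control and -2.88, -2.56, -2.48 and -2.44 in TCDD arrays. TCDD replicates 2 to 4 lay above all controls, and TCDD replicate 1 lay among them. The means were -2.90 ± 0.18 and -2.59 ± 0.20 (SD, n = 4 each), a difference of 0.31 (95% interval 0.03 to 0.59, limma unadjusted p = 0.0327, adjusted p = 0.399). The unadjusted limma p stayed at or under 0.0429 without control replicate 3 or 4 or TCDD replicate 1, and was 0.0659 to 0.0857 without any of the other arrays.

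Col14a1, which binds fibril surfaces in connective tissue, stood (chr7:92032865-92032924, +) at -5.35, -3.96, -4.36 and -4.67 in control and at -5.64, -3.39, -5.27 and -5.35 in TCDD. The top array was TCDD replicate 2, control replicates 2 to 4 lay between, and control replicate 1 was low with the other TCDD arrays. The difference was -0.33 (SE 0.51, limma adjusted p = 0.886). Col12a1, its close relative, had the same highest and lowest arrays, from -1.43 on TCDD replicate 2 to -3.18 on TCDD replicate 1.

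Col9a1, a cartilage and eye collagen, went the other way. It stood (chr9:22940151-22940982, +) at -3.27, -3.44, -3.33 and -3.41 in control and at -3.02, -3.57, -3.15 and -3.37 in TCDD, so that TCDD replicate 1 was its highest array and TCDD replicate 2 its lowest. Its probe of 60 bases spans 832 bases of the genome. The difference was 0.08 (SE 0.12, limma adjusted p = 0.868). Col9a1 has 3 probes, and those not used here were well above background on 0 arrays (chr9:22990092-22990153) and on 1 array (chr9:22989975-22990034). Col9a2, Col16a1 and Col22a1 completed the measured FACIT members, with differences of 0.03, 0.02 and -0.0034.

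Type VI collagen forms beaded filaments around cells, and 2 of its chains were measured. Col6a2 had a highest level of 0.49 on TCDD replicate 2 and lay between -1.69 and -0.29 on the other arrays. Col6a1 had a highest level of -2.06 on the same array and lay between -4.05 and -3.02 on the others. Their differences were -0.18 (SE 0.48) and -0.11 (SE 0.43).

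Col8a1, a short-chain network collagen of vessel walls, stood (chr11:43733411-43733470, +) at -5.25, -4.93, -4.83 and -4.31 in control and at -5.43, -4.46, -5.41 and -5.39 in TCDD. The 3 lower TCDD arrays lay below all controls, and TCDD replicate 2 lay among the controls. The difference was -0.34 (SE 0.27, limma adjusted p = 0.733).

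Col18a1 is the collagen of vascular basement membranes from which the fragment endostatin is cut. It stood (chr20:11981417-11981476, +) at -2.57, -2.21, -2.17 and -2.23 in control and at -2.98, -1.63, -2.67 and -2.64 in TCDD. All controls lay between TCDD replicate 2 above and the other TCDD arrays below. The difference was -0.18 (SE 0.27, limma adjusted p = 0.877). Col15a1, the other multiplexin, differed by -0.08 (SE 0.15) and was not highest on that array.

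Col23a1, a collagen that spans the plasma membrane, had its highest level on another array. It stood (chr10:37096029-37096088, +) at -4.92, -4.95, -4.91 and -3.65 in control and at -5.21, -4.51, -4.90 and -4.87 in TCDD, with control replicate 4 far above the rest. The difference of -0.27 (SE 0.30, limma adjusted p = 0.830) turned to 0.05 without control replicate 4. Col22a1, found at tissue junctions, was also highest there, at -3.60 against -5.18 to -5.01 in the other controls.

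Outside the 15 genes given array by array, the 11 other tested collagens had differences from -0.26 to 0.05, with 8 lower and 3 higher, and limma adjusted p from 0.894 to 0.999. Col1a1, Col5a2, Col11a1 and Col11a2 had several tested probes. The widest gap in difference between probes of a gene was 0.22, for Col1a1, and the probes of Col5a2 and Col11a2 differed in sign at -0.05 and 0.02, and at 0.05 and -0.08.

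Some arrays were the highest or the lowest for many members. TCDD replicate 2 was the highest of all 8 arrays for 11 of 26 collagens, against 13.1% of all genes, and TCDD replicate 1 was the lowest for 20 of 26, against 17.7% of all genes. TCDD replicate 1 also had the smallest share of spots well above background, 69.3% against 72.2% to 73.7% on the other arrays. Its share of spots marked as outliers, 1.36%, was the largest. The part of these array properties in the collagen values was not tested. Within the controls, control replicate 1 was the lowest for 18 of 26, against 32.3% of all genes. In 9 collagens TCDD replicate 2 lay more than 1 log2 unit above the mean of the other TCDD arrays, as it did in 1.59% of all genes. They were Col1a1, Col1a2, Col3a1, Col5a1, Col6a1, Col6a2, Col12a1, Col14a1 and Col18a1.

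Since these genes were picked for a high value on TCDD replicate 2, leaving that array out lowers their TCDD mean by construction, and the values without it are a description. The difference was then -1.25 (SE 0.36) for Col1a2, -0.97 (SE 0.40) for Col3a1, -0.84 (SE 0.19) for Col1a1 and -0.83 (SE 0.30) for Col14a1. Of all 26 collagens, 10 were then lower in TCDD at an unadjusted limma p under 0.05, against 3.19% of all genes, and 0 were higher. They were Col1a1, Col1a2, Col3a1, Col4a5, Col6a1, Col6a2, Col8a1, Col12a1, Col14a1 and Col18a1. The smallest limma adjusted p among all collagens was then 0.222, for Col1a1, so that 0 passed. For Col1a1 this fit used 1 of its 2 probes. On the other probe, TCDD replicates 3 and 4 (-2.53 and -2.76) lay above control replicate 1 (-2.87). Without TCDD replicate 1 the differences of Col3a1, Col5a1, Col6a1, Col6a2 and Col12a1 were above 0, at 0.04 to 0.08. Col6a1 and Col12a1 also stood above 0 without TCDD replicate 4, at 0.07 and 0.02.

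**Figure D4:**
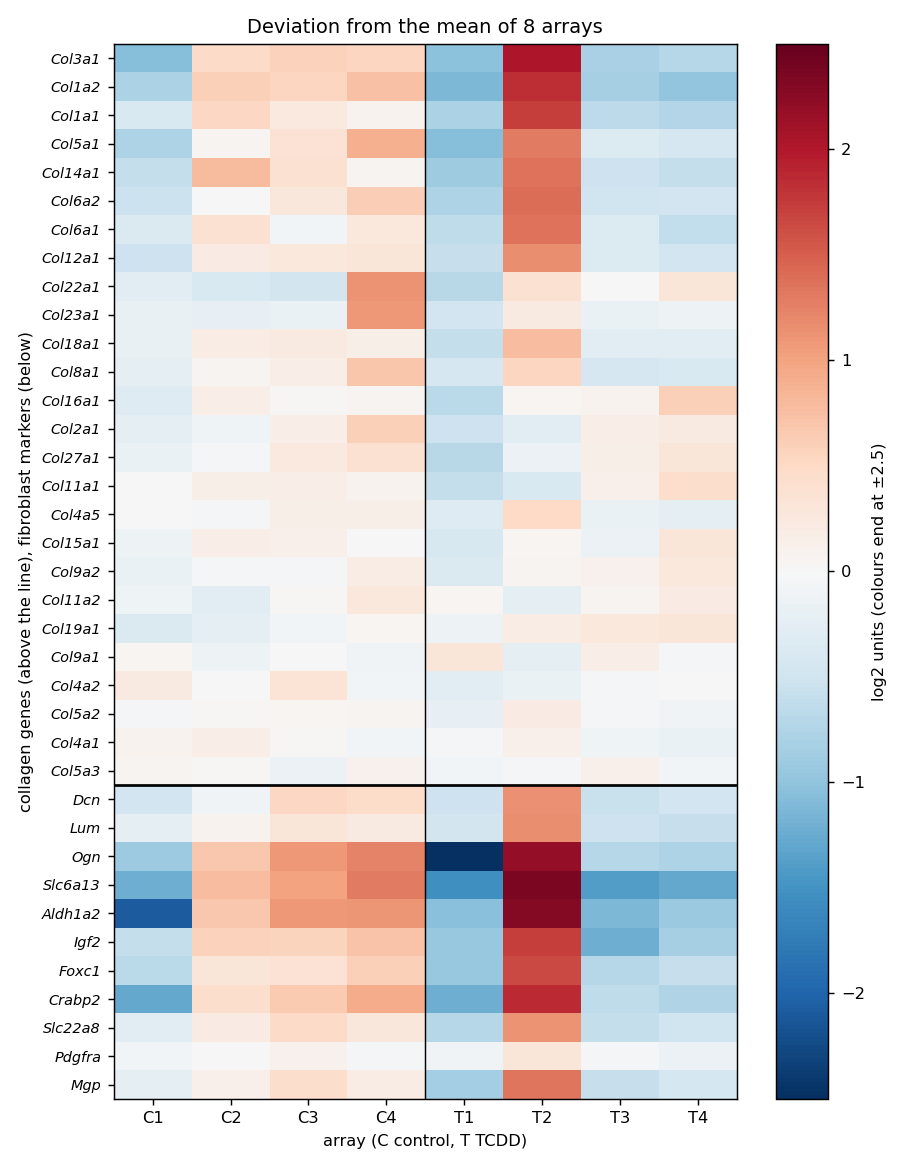
Deviation of each gene from its mean over the 8 arrays (log2 units, blue low and red high) for the 26 tested collagens, ordered by their spread, and for 11 fibroblast markers under the black line, with C1 to C4 the control and T1 to T4 the TCDD arrays. TCDD replicate 2 is red in the upper collagens and is the highest array for 11 of 11 fibroblast markers, while the lower collagens are pale throughout.

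Markers of meningeal and perivascular fibroblasts were high and low on the same arrays. Of 13 listed, 12 had a probe and 11 entered the test, and Slc13a4 was above background on some arrays only. TCDD replicate 2 was the highest array for 11 of 11, and 10 of 11 had a lower mean in TCDD, with 0 at an unadjusted limma p under 0.05 and a median difference of -0.34. Their mean level was -2.04, -0.96, -0.71 and -0.67 in control replicates 1 to 4 and -2.32, 0.25, -2.04 and -1.97 in TCDD replicates 1 to 4. Their summed signal ranged from 7.07 to 13.9 in control and from 5.54 to 27.0 in TCDD arrays, with the top of the TCDD range on replicate 2. Ogn, Slc6a13 and Aldh1a2, genes of leptomeningeal fibroblasts, had pooled SDs of 1.62, 1.56 and 1.60. Leaving out TCDD replicate 2, their highest array, lowers their TCDD means by construction, and the values without it are a description. Without it, 8 of 11 were lower in TCDD at an unadjusted limma p under 0.05, against 3.19% of all genes. The smallest limma adjusted p was then 0.214. The part of fibroblast content in the collagen values was not tested, and in whole tissue more cells of a type and more RNA per cell cannot be told apart.

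Markers of other cell types were read in the same way. Of 13 endothelial markers 11 were tested, with a median difference of 0.08 and summed signals of 13.4 to 14.7 in control and 14.1 to 15.9 in TCDD arrays, and Tek was not above background. Of 11 mural cell markers 10 were tested, with a median difference of -0.05 and sums of 3.59 to 4.34 against 3.37 to 4.77. Red blood cell markers were all tested, and 4 of 5 were higher in TCDD at an unadjusted limma p under 0.05, against 7.95% of all genes, with sums of 109 to 290.4 in control and 187 to 342 in TCDD arrays. Of the pituitary markers 3 of 8 were tested, with sums from 0.323 to 34.2 in control and from 0.610 to 42.6 in TCDD arrays, and Fshb, Pou1f1 and Ghrhr were not above background on any array. Choroid plexus markers had 3 of 8 tested, with sums of 1.21 to 2.66 against 1.07 to 4.23, and Clic6 was not above background on any array. Tanycyte markers had 8 of 10 tested and a median difference of -0.06. Schwann cell and skeletal muscle markers each had 3 tested, and Prx, Foxd3, Ckm and Myh2 were not above background on any array. The summed signal was highest on TCDD replicate 2 for the endothelial, mural, red blood cell, pituitary and choroid plexus lists as well as for the fibroblast list, and on another array for the hypothalamus, tanycyte, Schwann cell, skeletal muscle and cartilage lists. The part of these cell types in the collagen values was not tested.

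Genes that make, link, cut or bind collagen were read from the same fit, in which 2.82% of all genes were lower and 7.95% higher at an unadjusted limma p under 0.05. For the enzymes and chaperones of collagen synthesis 36 names were listed, old and new symbols of a gene included, of which 26 had a probe. The 21 tested had 14 lower and 7 higher means, 0 at an unadjusted limma p under 0.05 and a median difference of -0.02. The member with the largest difference was Adamts2, which removes the amino-terminal propeptide of procollagen, at -0.26 (SE 0.70) and with its highest level on TCDD replicate 2. The crosslinking and fibril assembly list had 13 of 17 genes tested, 12 with a lower mean, 0 at an unadjusted p under 0.05 and a median of -0.17. Its largest difference was that of Ogn, a small proteoglycan that regulates fibrils, at -1.04 (SE 0.98), and 3 of its members (Dcn, Lum and Ogn) are also in the fibroblast list.

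Degradation of collagen and its inhibitors had 9 of 14 genes tested, 6 lower and 3 higher, 0 at an unadjusted limma p under 0.05, and a median of -0.09. Timp1, an inhibitor of matrix metalloproteinases, had the largest difference at -0.22 (SE 0.39). The collagenases Mmp1a, Mmp8 and Mmp13 were not above background on any array. Of the 9 collagen receptors 8 had a probe and 5 were tested. Of the tested, 2 were lower and 3 higher, with 0 at an unadjusted limma p under 0.05 and a median of 0.08. Itga1, the integrin chain that binds type IV collagen, had the largest difference at -0.17 (SE 0.15).

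Of the 16 other basement membrane genes 12 had a probe and 9 were tested. Of the tested, 6 were lower and 3 higher, with 0 at an unadjusted limma p under 0.05 and a median of -0.06. Lama2, a laminin chain of vessel and muscle basement membranes, had the largest difference at 0.22 (SE 0.18). TCDD replicate 2 was the highest array for 4 of these 9, against 13.1% of all genes. Nid1 and Nid2, which link laminin to type IV collagen, were among the 4. In the other pathway lists it was highest for 7 of 21 synthesis, 9 of 13 crosslinking, 6 of 9 degradation, 5 of 5 receptor and 6 of 9 TGF-beta signalling genes tested. Among TGF-beta signalling genes, which drive collagen transcription in fibroblasts, 9 of 14 were tested, with 1 lower and 8 higher means and a median of 0.09. Tgfb2, a ligand, was the 1 member at an unadjusted limma p under 0.05, at 0.51 higher in TCDD (SE 0.21, unadjusted p = 0.0390, adjusted p = 0.424).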

How the data were processed

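Per the file headers, spot intensity (linear, background-subtracted) came from Agilent's Feature Extraction software, version 10.7.1.1. A deposited series-wide table of intensity values served as an alternative and correlated with the scanner values at 0.9991 or more. Its scale is linear by its values, and every array has the same median in it, 65.1. How it was centred and normalized is not stated. Probe positions are those of the scanner files on rn4. No annotation of that build was used, so exons and UTRs are not stated. All 37 names match current rat symbols in RefSeq (GRCr8), and that build was used for names and start windows alone.

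The main value was log2(processed signal) minus the array's 75th percentile over the 42877 non-control spots, leaving out 1377 control spots and spots marked as outliers. Spots of a probe were averaged. A probe was tested if well above background on all 4 arrays of a group (19102 probes), and the probe with the highest mean signal stood for its gene (16574 genes). A dim spot keeps the scanner's value near background, which compresses differences. Tests used limma 3.58.1 in R 4.3.3 (lmFit and eBayes, group as the only term, 2-sided, Benjamini-Hochberg, threshold 0.05), checked on simulated data. The number of arrays limits the precision. The labels number 4 animals per group, and no source says that they were kept or exposed independently.

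Values in every array are given for Col1a1, Col1a2, Col3a1, Col4a1 and Col4a2, the 12 collagens of smallest unadjusted p, the 3 of largest difference and the 3 of largest pooled SD, which makes 15 genes. Of the pathway lists, members at an unadjusted p under 0.05 were named, or else the one of largest difference. Further names were picked with values in view. The members, lists and rules were chosen with earlier results of these data known. Plots used matplotlib 3.10.9 under Python 3.11.15.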

Additional observations from a re-analysis of the deposited data

Results flagged for a closer look

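In 52 groups of 4 arrays (26 collagens in each exposure group), 15 had a highest or lowest array set apart from the rest by a gap larger, as a share of the group's range, than Dixon's 95% critical value, where chance gives about 1 in 20. TCDD replicate 2 was the array set apart in 8 of them. Its gap took 0.962 of the range for Col8a1, 0.948 for Col1a1, 0.905 for Col1a2, 0.898 for Col3a1, 0.864 for Col12a1, 0.862 for Col6a2, 0.847 for Col6a1 and 0.833 for Col14a1. Control replicate 1 was set apart as the lowest control in 4, with 0.932 for Col3a1, 0.88 for Col12a1, 0.877 for Col1a2 and 0.843 for Col18a1. Members of 1 array are not independent, so these counts are of arrays and not of separate events. Fibroblast markers were highest on TCDD replicate 2 in 11 of 11, and their part in this pattern was not tested.

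Control replicate 4 was set apart as the highest control for Col23a1, with 0.97 of the range, and for Col22a1, with 0.89. TCDD replicate 3 was set apart for Col5a3, with 0.896 of a narrow range.

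Probes that did not stand for their gene had signal well above background on TCDD arrays and on 0 control arrays in 3 cases. A second probe of Col12a1 was above background on 2 TCDD arrays (replicates 2 and 3), 1 of Col23a1 on 1 (replicate 2) and 1 of Col9a1 on 1 (replicate 3). Their highest levels were -5.44, -5.95 and -5.72.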

How the results depend on the processing

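Across 21 alternatives, 0 collagen genes passed the adjusted threshold in limma, and the smallest adjusted p was 0.137, for Col19a1. The median difference of the collagens stayed below 0, from -0.2432 to -0.0014 when 1 array was left out. Of all genes, 4 passed, against 20 with normexp background correction (offset 50), 27 with median scaling, 0 without the filter on dim probes (2032 at an unadjusted p under 0.05), 34 with a trended robust variance, 68 with array weights, and 0 to 7 when 1 array was left out. Collagens at an unadjusted p under 0.05 numbered 2 (10.8% of all genes), against 1 with normexp (6.52%), 1 with the trended robust variance (10.6%), 1 with array weights (13.2%) and 0 to 10 when 1 array was left out. The 0 came without control replicate 1 (8.10%) or TCDD replicate 3 (8.50%) and the 10 without TCDD replicate 2 (10.8%). The median spread of the collagens was 0.245 with normexp, whose offset compresses low signals, against 0.379. No median over all genes is given beside the 0.245, so that value does not compare collagens with all genes. Without both replicate 1 arrays, an alternative chosen after seeing the data, 2 genes and 1 collagen passed these respective thresholds, and Col22a1 stood at 0.13 and Col5a3 at 0.0019. With the 75th percentile taken over probes, also added, no collagen changed sign.

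Signs turned for Col11a2 (-0.018) with the mean of its probes and for Col22a1 (0.24) and Col5a3 (0.026) with array weights. The cause was not tested. When 1 array was left out, signs turned for 14 collagens.
Their differences ran, for Col11a2 from -0.041 to 0.14, for Col12a1 from -0.53 to 0.049, for Col15a1 from -0.20 to 0.034, for Col16a1 from -0.17 to 0.25, for Col22a1 from -0.16 to 0.37, for Col23a1 from -0.39 to 0.054, for Col3a1 from -0.97 to 0.040, for Col5a1 from -0.74 to 0.046, for Col5a2 from -0.13 to 0.0061, for Col5a3 from -0.085 to 0.0029, for Col6a1 from -0.58 to 0.082, for Col6a2 from -0.68 to 0.047, for Col9a1 from -0.0012 to 0.18 and for Col9a2 from -0.050 to 0.16.
Same-numbered arrays did not deviate together in every pair, with correlations of 0.23, -0.0031, -0.046 and 0.10, and 1 of 4 numbers matched best with its own number, so the number, which is also the slide position, was not taken to pair the arrays. With the replicate number as a block, 0 genes passed against 4. The collagens at an unadjusted p under 0.05 were then Col19a1 and Col2a1 in place of Col19a1 and Col4a2, among 12.9% of all genes. Their unadjusted p in this limma fit was 0.00251 for Col19a1, 0.0402 for Col2a1 and 0.0631 for Col4a2. Without the filter they were Col19a1 and Col24a1, among 7.74% of all genes. Depth is not defined for arrays. The 9 collagens not above background on any array have only an upper bound there.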
